A study of Arabidopsis thaliana with 6 samples.

Results

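The LSM genes encode Sm-like RNA-binding proteins. Members were taken as the array's probe sets that name 1 gene whose symbol is LSM followed by a digit, with 1 probe set kept per gene. This gave 6 genes, each with 1 probe set, among 13356 genes named on the array: LSM1A (AT1G19120), LSM1B (AT3G14080), LSM3A (AT1G21190), LSM3B (AT1G76860), LSM6A (AT3G59810) and LSM6B (AT2G43810). They form 3 pairs of paralogs. Of the 11 LSM loci of Arabidopsis listed for this work, the other 5 (LSM2, LSM4, LSM5, LSM7 and LSM8) were not analysed here.

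LSM proteins assemble into ring-shaped complexes that bind uridine-rich ends of RNA. A cytoplasmic ring that contains LSM1 joins the decapping machinery and promotes the decay of deadenylated mRNA in P bodies. A nuclear ring that contains LSM8 in place of LSM1 binds and stabilises U6 small nuclear RNA, a core RNA of the spliceosome. LSM3 and LSM6 are subunits of both rings, whereas LSM1 belongs to the cytoplasmic ring alone. In Arabidopsis LSM1, LSM3 and LSM6 are each encoded by a pair of genes.

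Transcript levels were measured on Affymetrix arrays in rosette leaves of Arabidopsis thaliana aged 21 days, grown in pots with 12 h of light per day and kept well watered. There were 3 arrays from wild-type Columbia-0 plants (genotype Col0) and 3 from a double mutant, labelled at3g03940/at518190 -/- and described as a knockdown. The second locus is written with a digit missing and was read as AT5G18190 (MLK1); AT3G03940 and AT5G18190 encode MLK kinases, and the series title concerns osmotic stress and the phosphorylation of histone H3. The arrays compared here hold no osmotic treatment. The labels do not say whether replicates came from separate plants, so p-values reflect only how these samples scatter, and part of that may be technical. The sources used here do not give the kind of mutant allele.

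The labels were checked on MLK1, which lay between 7.63 and 7.92 on the log2 scale in wild-type plants and between 3.36 and 3.57 in the double mutant, under the lower quartile of each array. MLK1 is the locus read from the incomplete label, so its fall is not an independent check of that reading. No value for AT3G03940 is given here. The array medians were 5.81 to 5.91, and correlations between arrays across probe sets were 0.993 to 0.998 for arrays of the same genotype and 0.967 to 0.970 for arrays of different genotypes. Other values also moved with genotype. The array's 25S ribosomal RNA control was 6.26 higher in the double mutant on the log2 scale, and 3 of 6 pairs of plant control probe sets had a higher 5′ signal relative to the 3′ signal on all double mutant arrays. The shifts were 0.67 and 0.35 for the actin pairs, 0.38 and 0.03 for the GAPDH pairs and -0.19 and 0.06 for the ubiquitin pairs. Of 13 green leaf markers 3 were measured, here meaning that a probe set names the gene alone. All 3 rose from wild type to double mutant. RCA, the Rubisco activase, was at 12.94 ± 0.05 and 13.54 ± 0.03 (SD, n = 3). PSBY was at 12.1 ± 0.1 and 12.6 ± 0.1, and LHCB4.3 read lower, at 7.21 ± 0.12 and 7.76 ± 0.16 (SD, n = 3). The single measured gene of 7 root markers, PYK10, was at 11.31 ± 0.14 and 11.82 ± 0.03 (SD, n = 3), and the single measured gene of 7 seed markers, LEA4-5, read 4.07 to 4.57 over the 6 arrays. The part of these in the LSM differences was not tested. In whole leaves, fewer cells of a type and less RNA per cell cannot be told apart.

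Of the 6 LSM genes 2 were lower in the double mutant, none was higher and 4 did not pass the test. LSM3A fell to 57.6% of its wild-type level and LSM6A to 81.4%, while LSM1A, LSM1B, LSM3B and LSM6B did not pass. Thus 2 of 6 genes were called at an adjusted p of 0.05 (limma, Benjamini-Hochberg over 22746 probe sets), against 38.5% of all probe sets, 18.7% as lower and 19.8% as higher. Among named genes within the range of mean levels of these 6, 46.9% were called, 22.2% as lower. The LSM share of 33.3% was thus below the array's share in either direction and above its share as lower, and with 6 genes nothing particular to the family is read from it. The count was 4, all lower, with each array centred on its median, against 39.1% of all probe sets in that fit and 21.7% as lower. It was 1 when wild-type replicate 3 or any 1 double mutant array was left out, against 30.7% to 35.1% of all probe sets in those fits. The median difference of the 6 genes was -0.26 on the log2 scale and that of all probe sets was -0.01. The 3 arrays of one genotype lay wholly apart from those of the other for 3 of the 6 genes, against 49.7% of all probe sets. All 3 were lower in the double mutant; 24.5% of all probe sets lay wholly apart in that direction. All 6 genes read above each array's lower quartile (3.71 to 3.79) on all 6 arrays, so none lay near the background. Probe sets differ in how strongly they bind, so levels are compared between genotypes and not between genes.

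**Figure D1:**
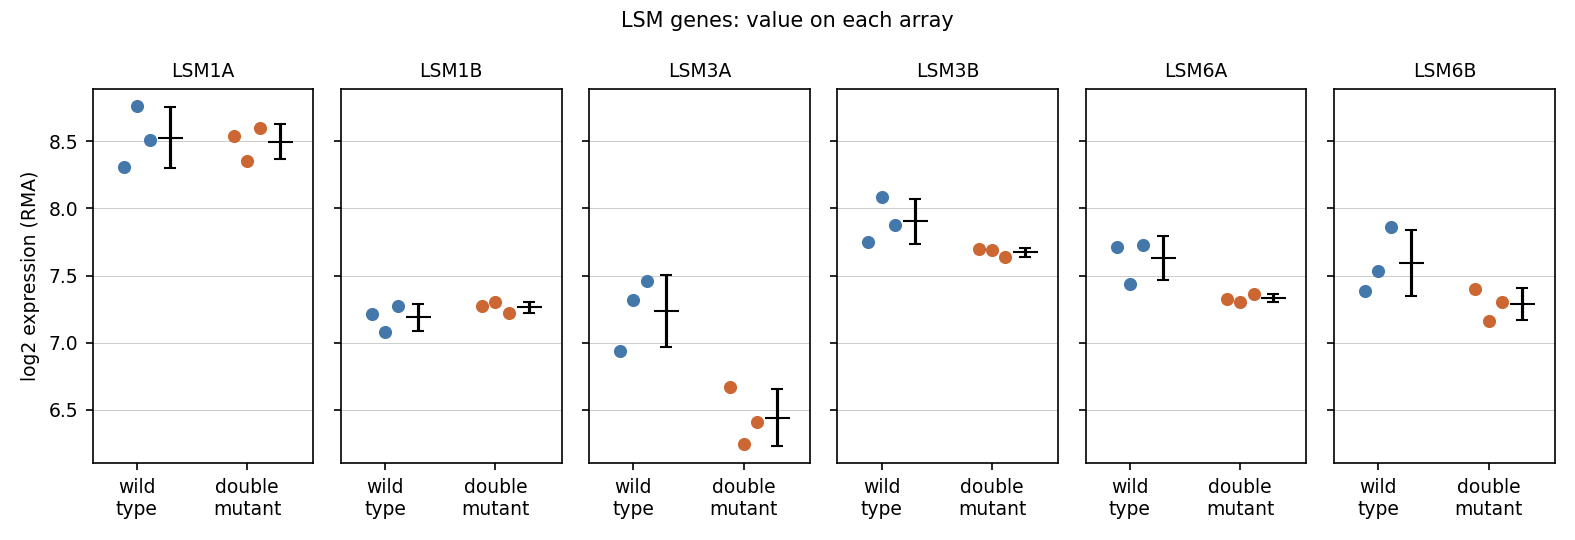
Log2 expression (y axis) of the 6 LSM genes on each array, with 1 panel per gene, wild type in blue and double mutant in orange; the bars beside the points are the mean ± SD of 3 arrays. All 3 double mutant points lie below all 3 wild-type points for LSM3A, LSM3B and LSM6A.

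LSM3A, a subunit of both rings, changed most among the 6 genes. Wild-type arrays read 6.93, 7.32 and 7.46 on the log2 scale, and double mutant arrays 6.67, 6.25 and 6.41. The groups did not overlap, with a gap of 0.27 between the lowest wild-type and the highest double mutant array. The wild-type mean of 7.24 ± 0.27 compared with 6.44 ± 0.21 in the double mutant (SD, n = 3), and the fall was -0.80 (SE 0.15, 95% interval -1.12 to -0.47) with limma adjusted p = 0.0013. This is 1.74-fold lower. Set against the wild-type mean, the 3 double mutant arrays were lower by 0.57, 0.99 and 0.83 on the log2 scale. A larger difference in either direction was seen for 10.9% of all probe sets. LSM3A was also among the more variable probe sets within a genotype, since 6.05% had a larger pooled SD than its 0.24.

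LSM3B, its paralog, was 7.75, 8.08 and 7.88 in the wild type and 7.70, 7.69 and 7.64 in the double mutant. All double mutant arrays were lower, by a gap of only 0.05. The means were 7.90 ± 0.17 and 7.67 ± 0.03 (SD, n = 3), a difference of -0.23 (SE 0.10, 95% interval -0.46 to -0.01) with limma adjusted p = 0.10. That did not pass, and it passed (adjusted p = 0.039) without wild-type replicate 1, the lowest of its 3 wild-type arrays.

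LSM6A, likewise a subunit of both rings, read 7.72, 7.44 and 7.73 in the wild type and 7.32, 7.31 and 7.36 in the double mutant. The double mutant arrays lay close together, 0.07 below the lowest wild-type array. Its mean dropped from 7.63 ± 0.16 to 7.33 ± 0.03 (SD, n = 3), that is -0.30 (SE 0.10, 95% interval -0.52 to -0.07) with limma adjusted p = 0.038. The call depended on the arrays used. Among the fits that left out 1 array, it passed only without wild-type replicate 2 (adjusted p = 0.0054). Leaving out wild-type replicate 1 gave an adjusted p of 0.10 and leaving out wild-type replicate 3 gave 0.12. Leaving out 1 double mutant array gave 0.099 for replicate 1, 0.12 for replicate 2 and 0.077 for replicate 3.

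LSM6B was 7.39, 7.53 and 7.86 in the wild type and 7.40, 7.16 and 7.30 in the double mutant. The groups overlapped, because wild-type replicate 1 lay just below double mutant replicate 1. The means were 7.59 ± 0.24 and 7.29 ± 0.12 (SD, n = 3), a difference of -0.31 (SE 0.13, 95% interval -0.58 to -0.03) with limma adjusted p = 0.081. This estimate was as large as that of LSM6A, with a wider spread between arrays. It passed without wild-type replicate 1 (adjusted p = 0.027).

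The LSM1 genes, whose products mark the cytoplasmic decapping ring, gave the smallest differences. LSM1A was 8.31, 8.76 and 8.51 in the wild type and 8.54, 8.35 and 8.60 in the double mutant, so the groups overlapped throughout. Its difference was -0.03 (SE 0.12, 95% interval -0.31 to 0.24) with limma adjusted p = 0.87. Leaving out wild-type replicate 2 turned it to 0.09 and leaving out double mutant replicate 2 turned it to 0.04, so its direction was not fixed. LSM1B was 7.21, 7.08 and 7.27 in the wild type and 7.27, 7.30 and 7.22 in the double mutant, again overlapping. Its difference was 0.08 (SE 0.09, 95% interval -0.12 to 0.28) with limma adjusted p = 0.54. The intervals span 80.9% to 118% of the wild-type level for LSM1A and 91.9% to 121% for LSM1B.

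**Figure D2:**
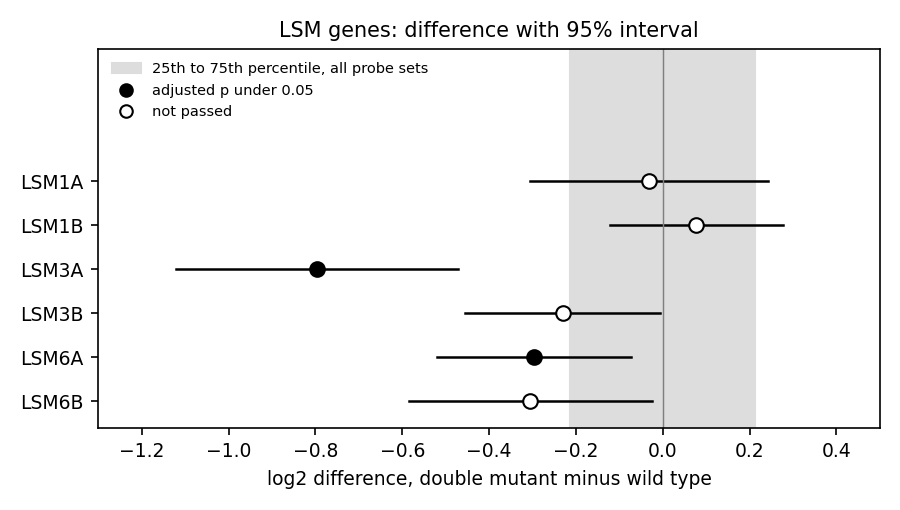
Difference between genotypes in log2 expression (x axis) for each LSM gene (y axis), with its 95% interval from limma; filled points passed an adjusted p of 0.05 and the grey band runs from the 25th to the 75th percentile of all probe sets. The interval of LSM3A runs from -1.12 to -0.47, and those of LSM1A and LSM1B span 0.

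The rank of each array within its genotype was described for these genes and was not tested. Wild-type replicate 3 was the highest of its group for 4 of the 6 genes and replicate 1 the lowest for 4. Wild-type replicate 2 was the highest for LSM1A and LSM3B and the lowest for LSM1B and LSM6A. In the double mutant, replicate 1 was the highest for 3 genes and replicate 2 the lowest for 4. Such ranks were not counted over all probe sets. The spread between arrays was larger in the wild type than in the double mutant for all 6 genes, with SDs of 0.10 to 0.27 against 0.03 to 0.21. Array quality weights, estimated over all probe sets and lower for arrays that scatter more, were 0.71, 0.47 and 1.21 for wild-type replicates 1 to 3. Those of the double mutant were 1.16, 2.08 and 1.04. Nothing particular to the LSM genes is thus read from their spread. Exact two-sided permutation tests of the 6 values gave p = 0.1 for LSM3A, LSM3B and LSM6A, the smallest that 3 arrays against 3 allow, or 0.2 after adjustment over the 6 genes. The authors' deposited table gives the same differences, with adjusted p = 0.0014 for LSM3A and 0.038 for LSM6A, and those 2 are the LSM genes below 0.05 in it.

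**Figure D3:**
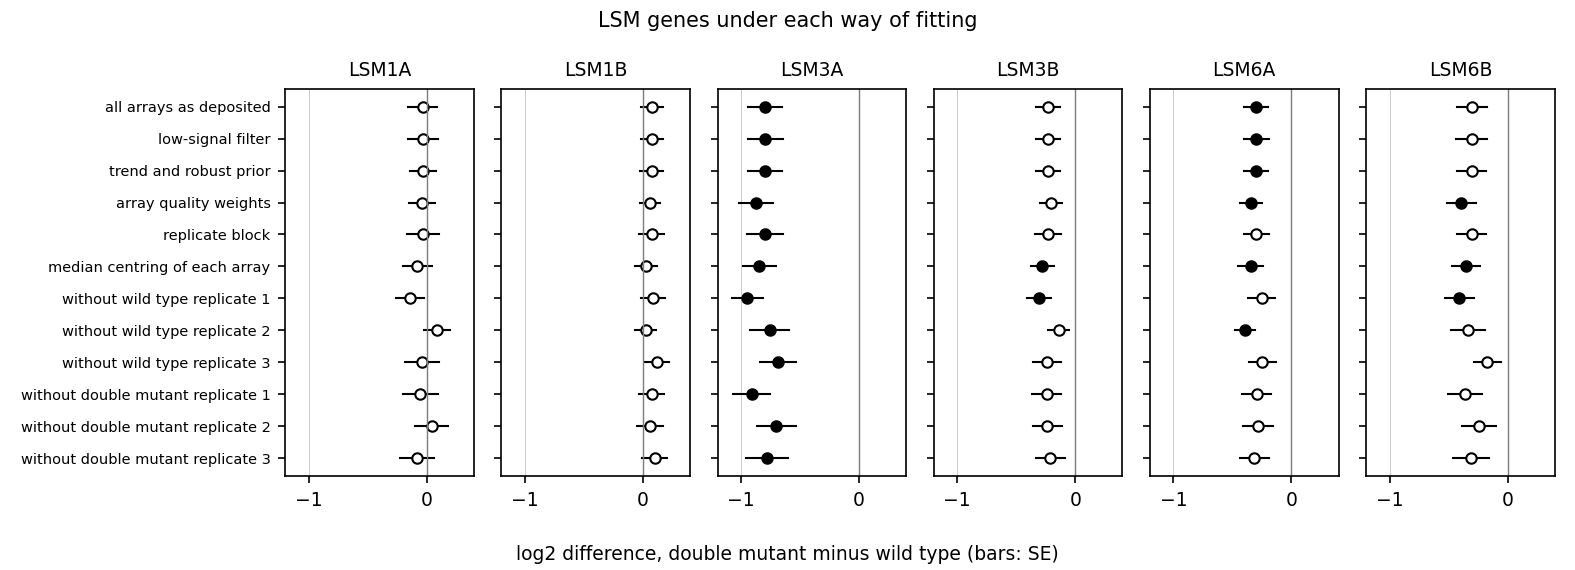
Difference between genotypes in log2 expression (x axis, bars are SE) for each LSM gene under each way of fitting (y axis), filled where the adjusted p was under 0.05. LSM3A is filled in every row, from -0.95 to -0.69, and LSM6A is open in most rows that leave out 1 array.

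Whether the paralogs of a pair moved unequally was asked on each array from the log2 value of one gene minus that of the other, in which the binding strength of the probes cancels between genotypes. LSM3A minus LSM3B was -0.82, -0.77 and -0.42 in the wild type and -1.03, -1.44 and -1.23 in the double mutant. The groups did not overlap, and LSM3A was lower relative to LSM3B by a further 0.57 (SE 0.17), or 1.48-fold. An exact permutation test gave p = 0.1, the smallest possible, and 0.3 adjusted over the 3 pairs; with 3 arrays against 3 no difference could reach 0.05, so the test settles nothing about this one. LSM6A minus LSM6B differed by 0.01 (SE 0.16, exact permutation p = 0.9, adjusted 0.9), and its groups overlapped. LSM1A minus LSM1B differed by -0.11 (SE 0.20, exact permutation p = 0.7, adjusted 0.9), with overlap as well. Whether probes of one paralog also bind the other was not tested.

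**Figure D4:**
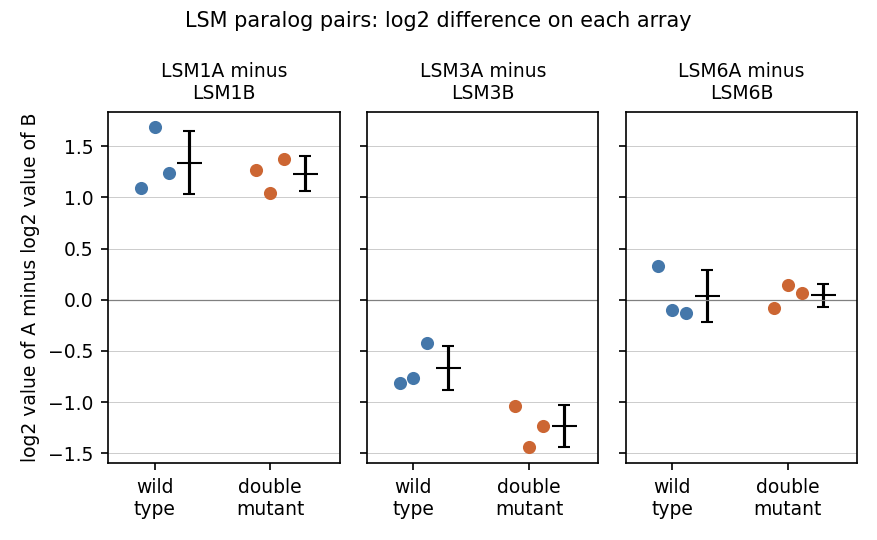
Log2 value of one paralog minus that of the other (y axis) on each array for the 3 LSM pairs, wild type in blue and double mutant in orange, with the mean ± SD of 3 arrays beside the points. Only the shift between genotypes within a panel can be read, and the groups lie apart only for LSM3A minus LSM3B.

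The genes nearest in pattern were sought among 13355 other named genes, by the root mean square distance over the 6 arrays between log2 profiles centred on their wild-type means. For LSM3A they were AT1G03760, at a distance of 0.10, and AT4G04940, at 0.11, whose own differences were -0.79 (SE 0.11) and -0.73 (SE 0.12). For LSM6A they were CES, which encodes the transcription factor CESTA, and AT1G26920, both at 0.03, with differences of -0.31 (SE 0.11) and -0.29 (SE 0.09). With 6 arrays in 2 groups such likeness is a description only.

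No LSM gene measured here lies in the stretch of chromosome 5, from AT5G40450 to AT5G55000, in which earlier results of these data found most expressed genes higher. Among the 10 nearest measured genes by gene order, 5 on each side, LSM3A had 3 that rose and 2 that fell, with a median difference of 0.08. Around LSM6A 1 rose and 2 fell, with a median of -0.06. Around LSM1B, whose own difference was 0.08, 6 of the 10 fell and none rose, with a median of -0.69. Around LSM1A and LSM3B 2 rose and 0 fell, and around LSM6B 2 rose and 1 fell. Among all named genes 17.1% were called lower and 17.8% higher. LSM1B had the most called neighbours of the 6 genes, and whether its count is unusual for the array was not tested.

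Genes that act with the LSM rings were followed through 7 lists drawn up by locus: the Sm core, the U4/U6.U5 tri-snRNP, U1 and U2 snRNP proteins with U2AF, snRNP assembly, decapping, deadenylation with nonsense-mediated decay, and the exosome with nuclear exonucleases. Of 92 listed genes 42 were measured, that is, had a probe set that names them alone. The others may lie among the tested probe sets that name several genes or are unnamed here. Of the 42 genes 10 fell, 3 rose and 29 did not pass. That is 31.0% called, against 34.9% of all named genes (17.1% lower and 17.8% higher), with a median difference of -0.12. The tables used here name 9 of the 42 genes beyond a locus tag, so most are given by locus alone. Without wild-type replicate 2 higher calls numbered 6 rather than 3 and lower calls 13 rather than 10. That is 19 of the 42 genes in all, against 38.8% of all probe sets called in that fit. The comparison with the array's share thus depended on the arrays used.

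The decapping list, which holds the partners of the LSM1 ring, had 0 calls among its 4 measured genes of 13 with limma, against 34.9% of all named genes. It also had 0 at an unadjusted p under 0.05 and 0 in each of the 11 alternative fits, which reuse the same arrays. With 4 genes measured and most of the list unseen, nothing particular to decapping is read from this. AT3G61240, the decapping gene with the largest statistic, differed by 0.21 (SE 0.10, limma adjusted p = 0.13). Of 5 measured genes for deadenylation and nonsense-mediated decay, AT2G39260 fell by 0.53 (SE 0.09) from 6.94 ± 0.06 to 6.41 ± 0.08 (SD, n = 3, limma adjusted p = 0.00074) and 4 did not pass, UPF3, a nonsense-mediated decay factor, among them at 0.09 (SE 0.09, adjusted p = 0.44). That is 20.0% called, against 34.9% of all named genes, and with 5 genes nothing particular to this list is read from it.

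Of 11 measured genes of the exosome list 3 fell, 1 rose and 7 did not pass. That is 36.4% called, against 34.9% of all named genes, so nothing particular to the exosome is read from it. RRP41L, a relative of the exosome subunit RRP41, fell from 5.69 ± 0.06 to 5.20 ± 0.16 (SD, n = 3), by 0.49 (SE 0.10). AT1G54440 fell by 0.48 (SE 0.11), and AT5G35910, named outside the rule for named genes, fell by 0.30 (SE 0.10, limma adjusted p = 0.030). The last of these did not pass when wild-type replicate 3 (adjusted p = 0.11), double mutant replicate 1 (0.10) or double mutant replicate 2 (0.11) was left out. AT2G32415 rose by 0.66 (SE 0.10) from 3.48 ± 0.12, below the lower quartile of each wild-type array, to 4.14 ± 0.08 (SD, n = 3). Its wild-type level lay near the background, so the size of its rise is uncertain.

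On the splicing side, 1 of 7 measured Sm core genes fell and none rose. This count, in either direction, was 3 with the trended robust prior, array quality weights or median centring. Of all probe sets 39.1%, 41.3% and 39.1% were called in those fits, against 38.5% in the main fit. When 1 array was left out the Sm core count was 2 (wild-type replicate 1, wild-type replicate 2 or double mutant replicate 1) or 0 (the other arrays). The share of all probe sets was then 30.7% to 38.8%. With 7 genes nothing particular to the Sm core is read from these counts. The gene called with every array was AT3G07590, which fell by 0.44 (SE 0.13, limma adjusted p = 0.022). Its adjusted p was 0.068 when wild-type replicate 2 or wild-type replicate 3 was left out, 0.098 for double mutant replicate 2 and 0.066 for double mutant replicate 3. Of 8 measured tri-snRNP genes, which join the U6 particle that the nuclear LSM ring binds, AT2G40650 rose by 0.63 (SE 0.09), AT4G12600 fell by 0.30 (SE 0.09) and 6 did not pass. The call of AT4G12600 (adjusted p = 0.026) was lost without wild-type replicate 1 or 3 or without any 1 of the double mutant arrays, with adjusted p of 0.055 to 0.090. Of 4 measured genes for U1, U2 and U2AF, 2 fell and 1 rose. ATU2AF35A, a subunit of the factor that recognises the 3′ splice site, fell by 0.42 (SE 0.10), and U2AF35B, its paralog, rose by 0.61 (SE 0.12). U2AF35B lies in the stretch of chromosome 5 named above. AT4G03120 fell by 0.37 (SE 0.10, adjusted p = 0.012), with adjusted p = 0.056 without double mutant replicate 3. Of 3 measured assembly genes, coilin (AT1G13030), the scaffold protein of Cajal bodies, fell from 5.80 ± 0.17 to 5.06 ± 0.15 (SD, n = 3), by 0.74 (SE 0.11, limma adjusted p = 0.00039), and AT1G54380 fell by 0.36 (SE 0.09).

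**Figure D5:**
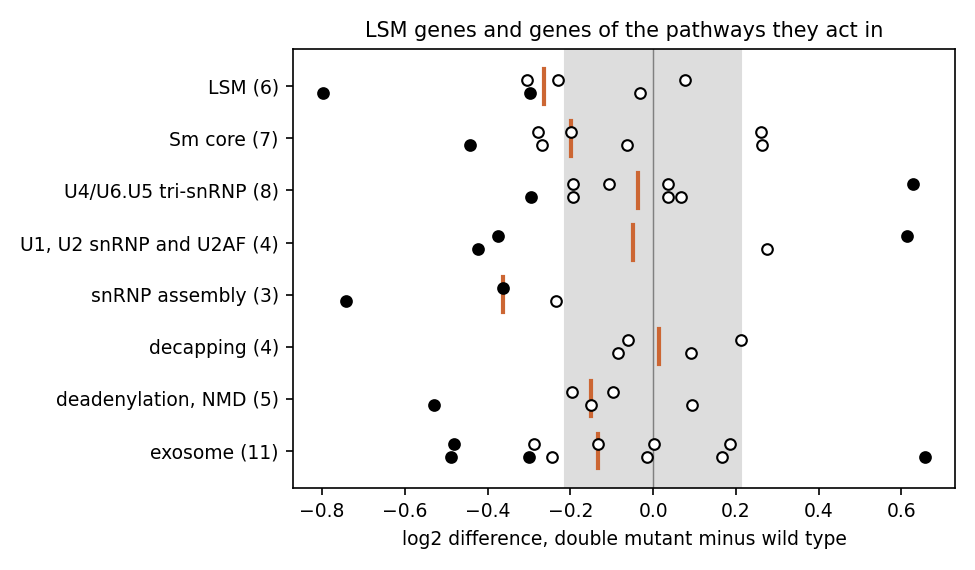
Difference between genotypes in log2 expression (x axis) for each measured gene of the LSM family and of the 7 pathway lists (y axis, number measured in parentheses), filled where the adjusted p was under 0.05, with the list median as a vertical bar and the 25th to 75th percentile of all probe sets in grey. LSM3A at -0.80 is the lowest point of the plot. The decapping row holds no filled point among only 4 measured genes.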

How the data were processed

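The authors deposited log2 expression values per probe set, for which the submitters' processing notes name RMA, limma and R 2.9.0. RMA corrects background, quantile-normalizes arrays and summarises probes, and it compresses folds of weak genes. The authors' deposited table also holds a comparison with log2 differences, p-values and a log odds score; it entered no test. Scan dates and scanner intensities were not used here, so no batch was examined; precision is limited by the number of arrays.

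The 64 control probe sets were left out, leaving 22746. Gene names come from the annotation table of the array platform and RefSeq's gene table of TAIR10.1; 13513 probe sets name 1 gene, 503 several, and 8730 are unnamed here. For each gene the probe set with the highest mean was kept. Two-sided tests of genotype, with no other term, were run for every probe set using lmFit and eBayes of limma 3.58.1 (R 4.3.3) with 10.6 total degrees of freedom and Benjamini-Hochberg adjustment. The test was checked on simulated data in which 200 of the 22746 probe sets were changed by 1 log2 unit or more. Of changes of 1 log2 unit 100% were recovered. Every LSM difference was smaller, and many more probe sets were called in the real data, so the check does not cover these results. Alternatives were a low-signal filter, a trended robust prior, array weights, a replicate block, median centring and leaving out each array. Members and lists were chosen with earlier results of these data known. Genes named are all LSM members, up to 3 called genes per pathway list with the smallest adjusted p (otherwise the largest statistic), and the 2 nearest profiles of each called member. Of the pathway lists, UPF3 and AT5G35910 are named outside this rule. Plots used matplotlib 3.10.9 under Python 3.11.15.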

Additional observations from a re-analysis of the deposited data

Results flagged for a closer look

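Outside the tested probe sets, the array's 25S ribosomal RNA control averaged 5.93 ± 0.76 on wild-type arrays and 12.20 ± 0.12 on double mutant arrays (SD, n = 3), which is 6.26 higher on the log2 scale. It stood out as a signal outside the main measurement that was above its level in the control arrays. Its part in the LSM differences was not tested.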

How the results depend on the processing

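LSM3A fell and passed in all 11 alternatives, with adjusted p of 0.00027 to 0.0088. The count of LSM genes called was 2 and ranged from 1 to 3 when 1 array was left out, against 30.7% to 38.8% of all probe sets. Over those fits the difference was -0.14 to 0.09 for LSM1A, -0.31 to -0.14 for LSM3B, -0.39 to -0.25 for LSM6A and -0.41 to -0.17 for LSM6B; LSM1A turned positive without wild-type replicate 2 (0.086) and also when double mutant replicate 2 was left out (0.041). With each array centred on its median 4 LSM genes were called, against 39.1% of all probe sets in that fit. There LSM3B at -0.28 (adjusted p = 0.047) and LSM6B at -0.35 (adjusted p = 0.038) passed as well. With array quality weights LSM6B passed at -0.39. In that fit 5 pathway genes were called higher in place of 3 and 13 lower in place of 10. That is 18 in all, against 41.3% of all probe sets. Higher pathway calls were 3 to 6 when 1 array was left out, and all pathway calls, 13 with every array, were 10 to 19. The share of all probe sets called was then 30.7% to 38.8%. Counting only genes the tables name, an alternative chosen after seeing the data, left 4 pathway calls, 1 higher and 3 lower, because 9 genes were counted. With the replicate number as a block 1 LSM gene was called, against 35.6% of all probe sets in that fit. There LSM6A at -0.30 had adjusted p = 0.053, and AT4G12600 of the tri-snRNP list had adjusted p = 0.051. Same-numbered arrays did not deviate together (correlations of -0.16 to -0.08), and no wild-type array correlated best with its own number. Other causes were not tested. No LSM gene had a second probe set, so that alternative was not run.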
